A study of Mus musculus with 12 samples.

Results

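The ileum of mice on a high-fat diet was compared with the ileum of mice on a normal-fat diet, both with plain water to drink. The comparison used 6 of the 12 libraries of the series, taken by their labels alone (3 of group HF and 3 of group NF), and every gene in the table. All mice were C57BL/6, an inbred laboratory strain, and were 16 weeks old. They had been put on their diets at 6 weeks of age and had stayed on them for 10 weeks. HF mice ate a diet with 60% of its kcal from fat, and NF mice ate the matching normal-fat diet. Each library was made from total RNA of the ileum of 1 mouse, so epithelium, immune cells, muscle wall and attached tissue were read together. In such whole-tissue RNA, fewer cells of a type and less RNA per cell cannot be told apart. The other 6 libraries came from mice on the same diets with a 23% (w/v) sugar drink (groups NF_Sugar and HF_Sugar). They shared the estimate of the spread between mice and gave the same fat comparison in other animals.

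The ileum is the last segment of the small intestine. Its enterocytes digest and absorb what the upper intestine has left, recover bile acids for return to the liver and make cholesterol of their own. Sterol synthesis is controlled by feedback: the membrane-bound factor SREBP2 is released when cellular sterol is low and switches on the genes of the pathway, while oxysterols acting on LXR receptors switch on sterol export. Sugar handling is under a separate factor, ChREBP (Mlxipl), which senses sugar phosphates. The ileal epithelium also faces dense bacteria, and it answers them with secreted lectins, serum amyloid A proteins and oxidant-producing enzymes.

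Expression values were RPKM, which are reads divided by the exon length of a gene and by the size of the library. By the steps between low RPKM values, the HF libraries held 20.2 to 23.9 M reads and the NF libraries 24.1 to 38.97 M. Fabp6 and Slc10a2, which carry bile acids in ileal enterocytes, were present in all 6 libraries (lowest values 2557 and 64.4 RPKM). NF replicate 2 and HF replicate 2 stood apart from the other libraries of their groups on the first principal component, which held 40.1% of the variance. NF replicate 3 had 37295 genes above 0, against 27913 to 32414 in the other 5 libraries. Some libraries carried markers of other regions or tissues. Car1, an abundant gene of the colon, was at 0.103, 17.2 and 241 RPKM in NF and 0.067, 0 and 0.0793 RPKM in HF, while the colon factor Hoxb13 was at 0.131 RPKM or less in all 6. Lct (lactase) and Gata4, which mark the upper small intestine, were at 57.8, 0.700 and 22.8 RPKM and 5.02, 0.640 and 4.50 RPKM in HF, against 4.87 to 8.56 RPKM and 2.08 to 3.01 RPKM in NF. The pancreatic enzyme Ctrb1 was at 8.48 RPKM in HF replicate 2 and at 0.381 RPKM or less elsewhere. The fat-cell gene Adipoq was at 11.3 RPKM in NF replicate 3 and at 0.86 to 2.75 RPKM elsewhere. The part of these differences in the results was not tested unless a value without the library is given.

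Of 17662 genes tested by limma on log2(RPKM + 1), 0 (0%) differed between HF and NF at a Benjamini-Hochberg adjusted p under 0.05, and the smallest adjusted p was 0.9997, so no single gene passed the test. At an unadjusted p under 0.05, 330 genes (1.87%) were higher in HF and 335 (1.9%) were lower, together 3.77%, where 883 genes would pass if no gene differed. Scaling moved this split: 498 genes were higher and 186 lower without scaling (72.8% higher), and 387 and 254 with upper-quartile scaling (60.4%), against 49.6% here. limma-voom on recovered reads also called 0 genes, with 597 at an unadjusted p under 0.05. In unscaled RPKM, the 3 HF values lay above all 3 NF values in 949 genes (5.37%) and below them in 525 genes (2.97%), together 8.35%. Overlap of single genes is judged below on these unscaled values, while the differences are on scaled values. Scaling divided NF replicate 3 by 1.096 and HF replicate 3 by 1.029. Genes with close values, such as Idi1 and Hk2, overlapped once scaled. In simulated data of this design, 55% of genes changed by 1 log2 unit and 85% of those changed by 2 units were called. The simulation drew noise for each gene independently and changed only genes that were not at low levels. Power for low genes, or with the variation that the real libraries share, was not tested. The SE of the log2 difference had a median of 0.18 over genes. Below, p is the unadjusted limma p, named only where it was under 0.05, as a mark of size against spread. Differences are HF minus NF on the log2(RPKM + 1) scale, which understates the ratio of genes at low RPKM. The value after ± is the SE. Of the genes tested, 8345 (47.2%) were higher and 9317 (52.8%) lower in HF, with a median log2 difference of -0.01.

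**Figure D1:**
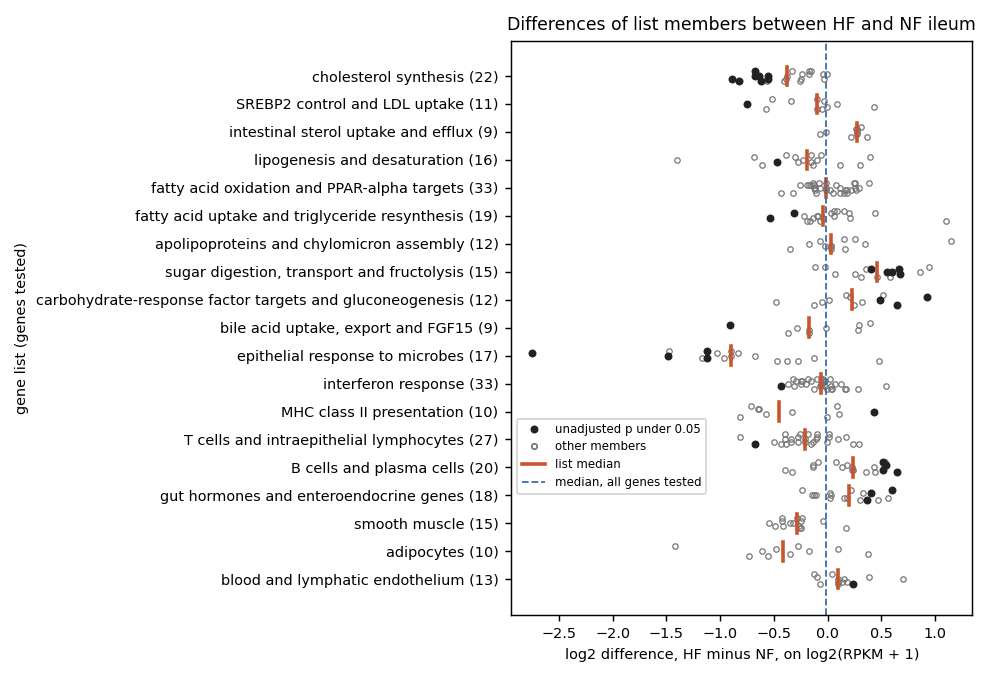
Each point is 1 gene of a list (vertical axis, number of genes tested in brackets), placed by its log2 difference between HF and NF ileum (horizontal axis). Filled points have an unadjusted limma p under 0.05, the thick bar is the list median and the dashed line is the median of all 17662 genes tested (-0.01). The 22 cholesterol synthesis points lie below 0 (20 of 22 do without scaling), and the list on the response to microbes has the lowest median (-0.90).

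All 22 cholesterol synthesis genes were lower in HF than in NF on scaled values, and 20 of 22 without scaling, with a median log2 difference of -0.38. Of them 8 had a p under 0.05 and 7 (31.8%) had HF values wholly below the NF values, against 2.97% of all genes. The genes run from the first steps of the mevalonate pathway to the last steps of sterol modification. Hmgcs1, the synthase that makes HMG-CoA (chr13:119690379-119708260, GRCm38), was at 75.5, 56.0 and 77.7 RPKM in NF and 27.7, 46.5 and 44.1 RPKM in HF. This is a log2 difference of -0.88 ± 0.29, p under 0.05. The HF mouse with the highest value stayed below the NF mouse with the lowest.

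Enzymes further down the pathway gave the same picture in part. Mvd, which makes isopentenyl diphosphate, was at 24.0, 19.3 and 28.0 RPKM in NF and 12.4, 17.5 and 17.4 RPKM in HF (-0.62 ± 0.26, p under 0.05), and Idi1, which isomerises that product, was at 13.7, 12.1 and 11.4 RPKM in NF and 6.52, 8.50 and 10.9 RPKM in HF (-0.55 ± 0.23, p under 0.05). Neither overlapped between the groups in unscaled RPKM, but Idi1 did once scaled. Among the sterol-modifying enzymes, Cyp51, the lanosterol demethylase, was at 30.4, 21.4 and 27.0 RPKM in NF and 13.2, 18.5 and 20.3 RPKM in HF (-0.64 ± 0.28, p under 0.05). Hsd17b7, a ketoreductase of the demethylation complex, was at 6.55, 5.00 and 5.57 RPKM in NF and 2.96, 4.03 and 4.25 RPKM in HF (-0.55 ± 0.17, p under 0.05). Msmo1, the methyl sterol oxidase, was lower too but overlapped, because NF replicate 3 (16.5 RPKM) lay under HF replicate 2 (16.7 RPKM). The other end of the list was flat: Mvk, Dhcr7 and Ggps1 had differences of -0.0024, -0.03 and -0.05.

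HF replicate 1 held the lowest of the 6 scaled values for 17 of the 22 genes, and NF replicate 1 the highest for 14. Without HF replicate 1 the list median was -0.26 and 18 of 22 genes were lower, and without NF replicate 1 it was -0.29 with 20 lower. Without the replicates numbered 2 of both groups, 21 of 22 genes were lower and the median was -0.47. The mean log2 level of the list was 3.93 ± 0.14 (SD, n = 3) in NF and 3.53 ± 0.24 in HF, and the groups did not overlap.

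**Figure D2:**
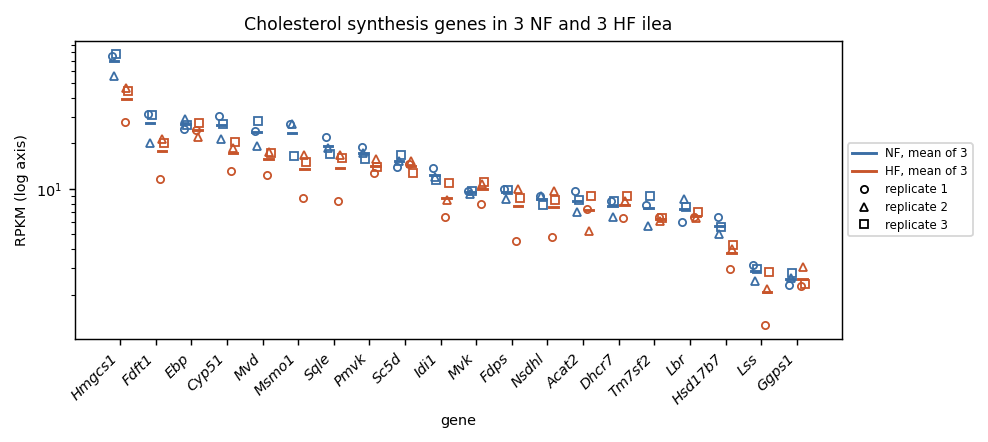
RPKM on a log axis (vertical) of 20 of the 22 cholesterol synthesis genes (horizontal, ordered by their NF mean) in 3 NF and 3 HF ilea. Each symbol is 1 mouse, with one shape for each replicate number, and the bars are group means. The HF bar lies below the NF bar for Hmgcs1, Mvd, Idi1, Cyp51 and Hsd17b7, and HF replicate 1 is often the lowest point.

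The start regions of these genes were read for the motifs of their known regulators, since the members were lower together. RefSeq promoter windows (build GRCm38.p6, 250 bases before to 50 after the start) were at hand for 17 of the 22 genes, and not for 5, among them Fdps, Fdft1 and Sqle. The CCAAT box, bound by NF-Y, the usual partner of SREBP2, was present on either strand in 16 of the 17 genes (94.1%). Mvk, Dhcr7 and Ggps1, which were flat between HF and NF, were among these 16. It was present in 42.2% of the genes tested that had a window and in 41.1% of all genes with one. The exact sterol element letters ATCACNCCA were in 0 of the 17 genes and in 0.992% of all genes, and the overlapping form TCACNCCAC was in 1 of the 17 (Hmgcs1) and in 1.44% of all genes. The CCAAT box was also in 5 of 6 genes of SREBP2 control, 7 of 14 sugar genes and 4 of 13 genes of the response to microbes. In all 7 motifs were searched in these 4 lists on both strands. The other 4, of PPAR, ChREBP and NF-kappaB, were in at most 2 genes of any list. The ChREBP pattern was in 0 of the 27025 genes with a window and the PPAR pattern in 0.0481%. Their absence from a list therefore says nothing about its genes. The 150 bases before the start are shown for the 6 genes with a p under 0.05 and a window, 5′ to 3′ on the strand of the gene, with CCAAT or its reverse complement ATTGG in capitals. Each holds 1 or 2 such boxes, the nearest ending 7 to 50 bases before the start. The windows are chr1:169969206-169969355 (minus strand), chr13:119690201-119690350 (plus), chr8:64733579-64733728 (minus), chr8:122443423-122443572 (minus), chr13:8885456-8885605 (plus) and chr5:4104698-4104847 (minus). A match is a run of letters, not a measured binding site.
Hsd17b7: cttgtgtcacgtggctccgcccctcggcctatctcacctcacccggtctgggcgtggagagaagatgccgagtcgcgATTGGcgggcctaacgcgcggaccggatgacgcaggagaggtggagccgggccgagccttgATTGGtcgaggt
Hmgcs1: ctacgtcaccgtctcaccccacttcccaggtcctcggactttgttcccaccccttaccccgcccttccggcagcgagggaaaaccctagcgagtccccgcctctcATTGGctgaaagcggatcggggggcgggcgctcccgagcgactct
Msmo1: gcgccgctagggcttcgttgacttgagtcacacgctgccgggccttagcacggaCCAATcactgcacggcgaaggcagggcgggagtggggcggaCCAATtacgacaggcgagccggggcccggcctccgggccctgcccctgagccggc
Mvd: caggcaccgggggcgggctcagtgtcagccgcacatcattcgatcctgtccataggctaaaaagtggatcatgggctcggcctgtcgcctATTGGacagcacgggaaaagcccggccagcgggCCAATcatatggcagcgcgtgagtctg
Idi1: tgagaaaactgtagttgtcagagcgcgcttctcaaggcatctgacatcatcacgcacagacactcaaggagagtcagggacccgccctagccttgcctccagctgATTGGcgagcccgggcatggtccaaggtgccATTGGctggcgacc
Cyp51: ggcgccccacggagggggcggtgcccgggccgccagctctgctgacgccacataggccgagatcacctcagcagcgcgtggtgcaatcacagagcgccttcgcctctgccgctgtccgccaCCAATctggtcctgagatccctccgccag

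The controls of the pathway were less uniform. Of 11 genes of SREBP2 control and LDL uptake, 9 were lower and 2 higher, with a median of -0.09 and 1 gene at a p under 0.05. Without NF replicate 1 the median was -0.009 with 6 of 11 lower, it was -0.19 without NF replicate 2 and -0.14 without NF replicate 3, and 7 of 11 were lower without scaling. The gene at a p under 0.05 was Insig1, which holds SREBP2 in the endoplasmic reticulum and is itself switched on by it. It was at 15.8, 16.97 and 18.3 RPKM in NF and 7.85, 15.3 and 8.44 RPKM in HF (-0.75 ± 0.30, p under 0.05), with HF replicate 2 close to the NF values and the other HF mice at about the same low level. The transcript of SREBP2 itself (Srebf2) was at 43.0, 31.6 and 43.3 RPKM in NF and 30.1, 41.6 and 43.2 RPKM in HF. Mylip, an LXR target that limits the uptake of cholesterol, was higher without overlap, at 2.34, 2.92 and 3.07 RPKM in NF and 4.57, 4.95 and 3.38 RPKM in HF (0.44 ± 0.25).

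Genes of sterol uptake and export were higher in HF in 7 of 9 cases, with a median of 0.27 and none at a p under 0.05. Abcg5 and Abcg8, the paired exporter that returns sterols to the lumen, did not overlap between groups. Abcg8 was at 35.3, 37.8 and 43.8 RPKM in NF and 55.3, 49.0 and 47.2 RPKM in HF (0.31 ± 0.24), and Abcg5 was at 52.5, 59.0 and 63.5 RPKM in NF and 89.7, 69.2 and 63.6 RPKM in HF (0.27 ± 0.31). Npc1l1, the uptake carrier for luminal cholesterol, was at 81.1, 80.6 and 83.3 RPKM in NF and 93.5, 115 and 90.3 RPKM in HF, also without overlap. Nr1h2 and Nr1h3, the LXR receptors, and Soat2, which esterifies cholesterol for storage and export, were higher with overlap (0.27 ± 0.17, 0.26 ± 0.18 and 0.37 ± 0.24). The 3 genes without overlap in unscaled RPKM are 33.3% of this list, against 5.37% of all genes. Of these, Abcg5 and Npc1l1 overlapped once scaled.

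Fatty acid synthesis genes were lower in HF in 13 of 16 cases, with a median of -0.19. The median was -0.12 without HF replicate 1 and -0.30 without the replicates numbered 2. Elovl6, which lengthens palmitate, was at 6.75, 6.54 and 8.30 RPKM in NF and 4.33, 4.29 and 7.12 RPKM in HF (-0.47 ± 0.16, p under 0.05), with HF replicate 3 inside the NF range. Scd1, the main desaturase, had the lowest fitted value of the list (-1.40), but it was at 9.94, 4.84 and 45.1 RPKM in NF and 5.04, 5.45 and 3.53 RPKM in HF. NF replicate 3 alone lay far above the rest, and it also had the highest Adipoq. Srebf1, the factor that drives this program, was higher in HF, at 6.12, 6.46 and 10.2 RPKM in NF and 11.1, 9.39 and 8.90 RPKM in HF (0.31 ± 0.14).

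Fat burning and fat absorption genes did not share a direction. Of 33 fatty acid oxidation and PPAR-alpha target genes 16 were higher and 17 lower (median -0.01), and none had a p under 0.05. Of 14 nuclear receptors and coactivators that sense lipids and foreign compounds 10 were higher (median 0.15). That median was 0.07 without HF replicate 2, and 0.08 without the replicates numbered 2. Ppara, the receptor of fatty acids, was higher without overlap, at 3.01, 2.91 and 3.84 RPKM in NF and 5.28, 4.16 and 4.72 RPKM in HF (0.38 ± 0.18). The coactivator Ppargc1a was too, at 1.65, 1.49 and 1.58 RPKM in NF and 2.46, 3.14 and 2.49 RPKM in HF (0.48 ± 0.15, p under 0.05). Oxct1, the enzyme that uses ketone bodies, was lower without overlap, at 26.9, 30.8 and 30.5 RPKM in NF and 18.4, 21.3 and 24.2 RPKM in HF (-0.51 ± 0.16, p under 0.05). Fatty acid uptake and triglyceride genes split 9 to 10 (median -0.04), and apolipoprotein and chylomicron genes 8 to 4 (median 0.04). The medians of the oxidation and uptake lists changed sign when single libraries were left out, among them NF replicate 3 and HF replicate 2. In the apolipoprotein list HF replicate 1 held the highest value for 9 of 12 genes and HF replicate 2 the lowest for 8, and the median was -0.20 without HF replicate 1. Apoc2 shows this, at 18.2, 14.998 and 27.0 RPKM in NF and 104, 15.3 and 61.2 RPKM in HF. Acsl3, which activates long-chain fatty acids, was lower without overlap, at 4.97, 3.85 and 6.97 RPKM in NF and 3.70, 3.05 and 3.34 RPKM in HF (-0.54 ± 0.16, p under 0.05).

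Sugar digestion, transport and fructolysis genes were higher in HF in 13 of 15 cases, with a median of 0.46. Of these 5 had a p under 0.05 and 7 (46.7% of the list) did not overlap, against 5.37% of all genes. Slc2a5, the fructose carrier of the brush border (chr4:150119283-150144169), was at 14.9, 18.8 and 15.9 RPKM in NF and 33.5, 28.8 and 22.3 RPKM in HF (0.67 ± 0.27, p under 0.05). Slc2a7, a related carrier, was at 1.32, 1.89 and 1.95 RPKM in NF and 4.57, 2.45 and 2.91 RPKM in HF (0.60 ± 0.25, p under 0.05). All 3 HF mice were above all 3 NF mice for both carriers. In the breakdown of fructose, Tkfc, the triose kinase, was at 96.0, 68.0 and 114 RPKM in NF and 152, 137 and 128 RPKM in HF (0.55 ± 0.24, p under 0.05). Pklr, the pyruvate kinase at the end of glycolysis, was at 49.0, 47.8 and 71.6 RPKM in NF and 74.3, 73.8 and 81.7 RPKM in HF (0.41 ± 0.17, p under 0.05). Neither overlapped between groups, while Khk, the first fructose enzyme, did (0.31 ± 0.32). The brush-border disaccharidases Treh (trehalase) and Sis (sucrase-isomaltase) were higher without overlap, and Sis was at 81.0, 85.3 and 109 RPKM in NF and 138, 131 and 123 RPKM in HF (0.46 ± 0.22). Slc5a1, the main glucose carrier, was not set apart, at 257, 231 and 209.5 RPKM in NF and 257, 178 and 241 RPKM in HF.

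**Figure D3:**
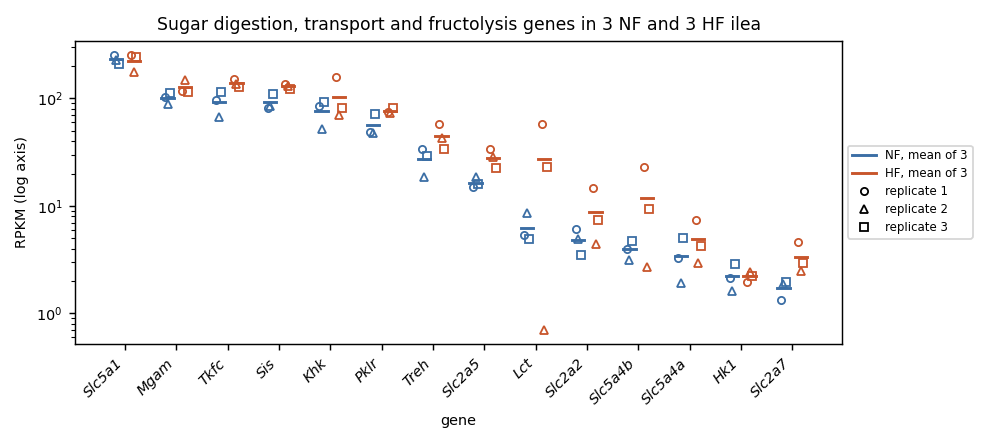
RPKM on a log axis (vertical) of 14 of the 15 genes of sugar digestion, transport and fructolysis (horizontal, ordered by their NF mean) in 3 NF and 3 HF ilea, with 1 symbol per mouse and group means as bars. Slc2a5, Slc2a7, Tkfc, Pklr, Treh and Sis show HF points above all NF points, while Lct, Slc2a2 and Slc5a4b are spread widely within HF.

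Part of this list varied with the markers of the upper small intestine, and the part of those markers in the result was not tested. Within HF, Lct, Slc2a2, Slc5a4b and Slc5a4a were highest in replicate 1 and lowest in replicate 2, in the same order as Gata4, and Slc5a4a and Slc5a4b are close copies whose reads may be shared. Slc2a5 was not in that order, since HF replicate 2 (28.8 RPKM) lay above HF replicate 3 (22.3 RPKM). HF replicate 1 held the highest value for 11 of the 15 genes. Without it the list median was 0.29, and 4 of 15 genes were lower. Without the replicates numbered 2 it was 0.40, with 1 gene lower. The mean log2 level of the list was 4.72, 4.61 and 4.67 in NF and 5.57, 4.68 and 5.07 in HF. The groups therefore overlapped on this mean, with HF replicate 2 inside the NF range.

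Of 12 ChREBP targets and gluconeogenic genes, 9 were higher in HF, with a median of 0.23. Of them 3 were higher at a p under 0.05, against 1.87% of all genes, and the median was 0.14 without the replicates numbered 2. Fbp1, the fructose-bisphosphatase of gluconeogenesis, was at 16.1, 8.07 and 16.1 RPKM in NF and 36.4, 24.8 and 19.9 RPKM in HF (0.92 ± 0.29, p under 0.05), without overlap. Mlxipl (ChREBP) was at 9.54, 7.95 and 13.2 RPKM in NF and 13.2, 23.2 and 15.8 RPKM in HF, and the lowest HF value and the highest NF value were both 13.2 RPKM. Its target Txnip, which limits glucose uptake, was at 93.7, 110.3 and 124 RPKM in NF and 149, 203 and 135 RPKM in HF (0.49 ± 0.17, p under 0.05), without overlap. Pck1 and G6pc, the enzymes that begin and end gluconeogenesis, overlapped widely between groups (-0.48 ± 0.52 and 0.51 ± 0.48).

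The epithelial genes of the response to microbes had the lowest median of the lists with at least 5 genes tested, at -0.90. Of 17 genes 16 were lower in HF, 4 had a p under 0.05 and 6 did not overlap, which is 35.3% of the list against 2.97% of all genes in that direction. Saa1, a serum amyloid A protein that the ileum makes on contact with bacteria (chr7:46740497-46742980), was at 64.8, 114 and 60.1 RPKM in NF and 1.15, 38.8 and 18.9 RPKM in HF. Its difference was -2.75 ± 1.11, p under 0.05. Saa2, a close copy with which it may share reads, was at 2.27, 2.25 and 5.72 RPKM in NF and 0.0997, 0.845 and 0.707 RPKM in HF. Both were lower in every HF mouse than in every NF mouse, and in both HF replicate 1 was by far the lowest.

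The secreted lectins Reg3g and Reg3b bind bacteria and help keep them off the epithelium, and they were among the most abundant genes of the list. Reg3g was at 1614, 2126 and 1097 RPKM in NF and 264, 803 and 922 RPKM in HF (-1.48 ± 0.66, p under 0.05), and Reg3b was at 2422, 2795 and 2318 RPKM in NF and 628, 1517 and 1638 RPKM in HF (-1.17 ± 0.63). Neither overlapped between groups. The third member, Reg3a, was the exception of the list and was higher in HF (0.48 ± 0.55), with HF replicate 1 at 125 RPKM. Nos2, the inducible nitric oxide synthase, was at 30.9, 43.9 and 22.2 RPKM in NF and 8.04, 23.1 and 15.8 RPKM in HF (-1.12 ± 0.41, p under 0.05). It overlapped only in that HF replicate 2 exceeded NF replicate 3. Duox2 and Duoxa2, which make hydrogen peroxide at the brush border, were lower with overlap (-0.67 ± 0.47 and -0.83 ± 0.50). Sprr1a, a barrier protein also made on bacterial contact, was at 8.79, 8.66 and 6.58 RPKM in NF and 1.97, 4.30 and 3.87 RPKM in HF (-1.12 ± 0.38, p under 0.05), and Fut2, which adds fucose to surface glycans, was at 3.08, 2.67 and 0.808 RPKM in NF and 0.239, 0.579 and 0.792 RPKM in HF. Both were without overlap in unscaled RPKM, but Fut2 overlapped once scaled. Pigr, which carries IgA into the lumen, showed no such gap, at 181, 397 and 301 RPKM in NF and 142, 435 and 301 RPKM in HF.

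**Figure D4:**
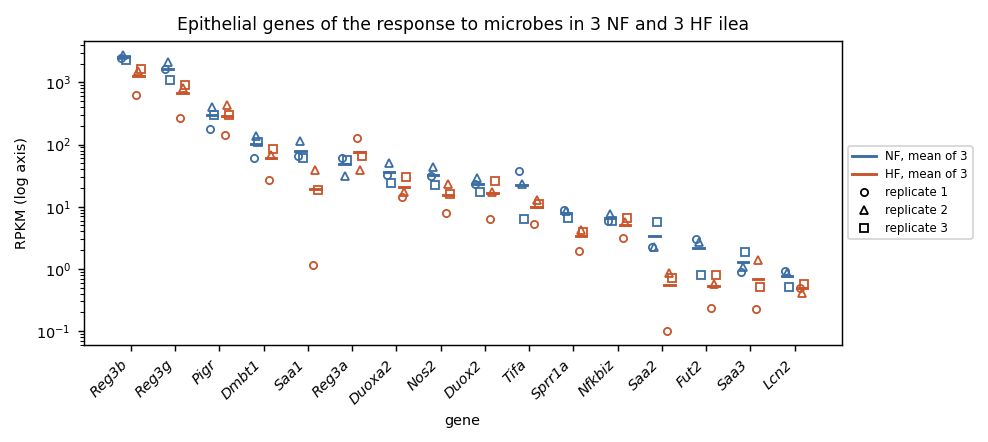
RPKM on a log axis (vertical) of 16 epithelial genes of the response to microbes (horizontal, ordered by their NF mean) in 3 NF and 3 HF ilea, with 1 symbol per mouse and group means as bars; Retnlb is left out because it is at 0 in HF replicate 1. HF points lie below all NF points for Reg3b, Reg3g, Saa1, Saa2, Sprr1a and Fut2, and HF replicate 1 is the lowest point in most genes.

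HF replicate 1 held the lowest scaled value for 15 of the 17 genes. Without it 15 of 17 genes were still lower, and the median was -0.62. Without the replicates numbered 2 the count was 16 of 17 with a median of -0.88. Nfkbia, the NF-kappaB inhibitor that NF-kappaB itself switches on (chr12:55489410-55492647), was not on this list but had the second smallest p among the lower genes without overlap, predicted gene models and receptor segments apart. It was at 59.7, 43.2 and 64.6 RPKM in NF and 32.2, 32.2 and 35.3 RPKM in HF (-0.77 ± 0.17, p under 0.05), and the HF mice lay close together.

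Paneth cell products, the other arm of ileal defence, did not share this pattern: 11 of 16 genes were higher and 5 lower, with a median of 0.14. Lyz1 (lysozyme) was at 2512, 4870.0 and 1058 RPKM in NF and 3156, 2056 and 3323 RPKM in HF. Defa2 and Defa5 were lower without overlap, at 10100.5, 10677 and 12920.4 RPKM against 9156, 9032 and 9693 RPKM and at 1258, 1696 and 1421 RPKM against 1017, 780.4 and 1056 RPKM, but alpha-defensins are near-identical copies whose reads may be split. Their NF replicate 3 values are also written with more digits than other values, as are 5 NF values in all. Without NF replicate 3, HF replicate 1 or HF replicate 3 the list median turned negative. Pro-inflammatory cytokine and chemokine genes were at low levels and had no common direction, with 14 of 24 higher and a median of 0.04. Il1b was at 0.484, 0.724 and 0.695 RPKM in NF and 0.263, 0.606 and 0.778 RPKM in HF and Tnf at 0.704, 0.510 and 0.531 RPKM in NF and 0.511, 0.367 and 0.513 RPKM in HF. Il6 was at 0.0172 RPKM or less in all 6 libraries.

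Among the lymphocyte lists, B-cell genes were higher in HF, while genes of antibody secretion overlapped between groups. In the combined list 15 of 20 genes were higher (median 0.23), 5 had a p under 0.05 and 10 (50%) did not overlap, against 5.37% of all genes. Fcer2a (CD23), found on follicular B cells, was at 1.12, 0.999 and 1.49 RPKM in NF and 2.08, 1.85 and 2.96 RPKM in HF (0.54 ± 0.18, p under 0.05). Cd22, an inhibitory B-cell lectin, was at 1.29, 1.81 and 1.59 RPKM in NF and 2.70, 2.45 and 3.18 RPKM in HF (0.52 ± 0.18, p under 0.05). Tnfrsf13c, the receptor for the survival factor BAFF, was at 1.87, 1.96 and 2.59 RPKM in NF and 3.63, 3.69 and 3.48 RPKM in HF (0.52 ± 0.20, p under 0.05). All 3 were without overlap. Ighd, the IgD constant region of naive B cells, was at 5.47, 5.07 and 6.06 RPKM in NF and 9.23, 7.28 and 10.1 RPKM in HF (0.53 ± 0.24, p under 0.05). Of the secretion genes, Igha, the IgA constant region, was at 685, 1370.1 and 1335 RPKM in NF and 816, 1149 and 1250.2 RPKM in HF and Jchain, which joins IgA units, at 56.7, 114 and 138 RPKM in NF and 54.0, 86.3 and 94.6 RPKM in HF. HF replicate 3 was the highest for 11 of 20 genes, and without it the median was 0.18 with 6 of 20 lower. Without the replicates numbered 2 the median was 0.38.

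T-cell genes and genes of antigen presentation depended on single mice. Of 27 T-cell and intraepithelial lymphocyte genes 21 were lower in HF (median -0.21), but without the replicates numbered 2 the median was -0.08. It was -0.37 without NF replicate 1, -0.09 without NF replicate 3, -0.105 without NF replicate 2 and -0.14 without HF replicate 1. Klrd1, a receptor of natural killer and CD8 T cells, was the only member without overlap (3.7% of the list, against 8.35% of all genes either way). It was at 0.641, 1.59 and 1.52 RPKM in NF and 0.359, 0.325 and 0.541 RPKM in HF (-0.67 ± 0.18, p under 0.05). Of 10 MHC class II genes 7 were lowest in NF replicate 1 and 7 highest in NF replicate 2, with Cd74, the invariant chain, at 246, 1596 and 1499.8 RPKM in NF and 289.9, 727 and 839 RPKM in HF. Their list median of -0.45 was -0.05 without NF replicate 2 and -1.20 without NF replicate 1. H2-Ob, an MHC class II gene largely of B cells, was higher without overlap, at 1.94, 2.66 and 2.56 RPKM in NF and 3.08, 3.78 and 4.28 RPKM in HF (0.43 ± 0.19, p under 0.05). Interferon-response genes had 23 of 33 lower (median -0.06) and turned to a median of 0.12 without NF replicate 2.

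Of 9 bile acid genes 1 did not overlap between groups, which is 11.1% of the list against 8.35% of all genes either way. Slc51b, the beta subunit of the exporter that passes bile acids to the blood, was at 320.0, 310.5 and 357 RPKM in NF and 186, 163 and 201 RPKM in HF (-0.90 ± 0.27, p under 0.05), and the groups did not overlap. Its partner Slc51a was at 836, 556 and 684 RPKM in NF and 676, 474 and 623 RPKM in HF (-0.28 ± 0.21), with overlap. Nr1h4 (FXR), the bile acid receptor that controls both, was at 61.2, 38.0 and 47.3 RPKM in NF and 28.0, 28.1 and 47.0 RPKM in HF (-0.57 ± 0.22, p under 0.05), and HF replicate 3 alone reached the NF range. Fgf15, the hormone by which the ileum signals bile acid load to the liver, was at 36.2, 25.9 and 32.4 RPKM in NF and 31.7, 43.0 and 17.1 RPKM in HF. Of the 9 genes of this list 6 were lower, with a median of -0.18. The median was 0.06 without NF replicate 3, where 4 of 9 were lower, and -0.03 without HF replicate 2, -0.07 without NF replicate 1 and -0.11 without HF replicate 3.

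Hormone genes of enteroendocrine cells were higher in 14 of 18 cases, with a median of 0.20. Of them 3 were higher at a p under 0.05, against 1.87% of all genes. Ghrl (ghrelin, a hunger hormone) was at 1.10, 1.29 and 1.30 RPKM in NF and 2.11, 1.69 and 2.34 RPKM in HF (0.41 ± 0.13, p under 0.05). Nts (neurotensin, released by fat in the ileum) was at 38.6, 34.4 and 25.8 RPKM in NF and 61.2, 50.2 and 45.8 RPKM in HF (0.60 ± 0.24, p under 0.05). Gcg, which encodes GLP-1, was at 12.2, 11.1 and 10.2 RPKM in NF and 14.7, 14.7 and 14.3 RPKM in HF (0.31 ± 0.21). None of the 3 overlapped between groups. Neurod1, a factor of these cells, was higher with overlap (0.37 ± 0.15, p under 0.05). The list was higher in 12 of 18 genes without HF replicate 1 (median 0.11) and in 11 of 18 without NF replicate 3 (median 0.12).

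Other lists held single genes of interest rather than a common direction. Of 20 cytochrome P450 genes 12 were higher (median 0.18), and the median was -0.12 without HF replicate 1. Cyp2u1, which hydroxylates long-chain fatty acids, stood out, at 3.76, 3.17 and 4.57 RPKM in NF and 8.97, 7.61 and 6.91 RPKM in HF (0.83 ± 0.20, p under 0.05), without overlap. Slc40a1, the iron exporter, was lower without overlap in unscaled RPKM, at 2.94, 4.10 and 2.79 RPKM in NF and 1.25, 2.60 and 2.46 RPKM in HF (-0.53 ± 0.22, p under 0.05). It overlapped once scaled, and 6 of 10 iron and heme genes were higher. Cldn2, a pore-forming claudin of tight junctions, was at 66.7, 64.3 and 47.3 RPKM in NF and 31.6, 40.5 and 51.9 RPKM in HF (-0.58 ± 0.25, p under 0.05), within a list split 7 to 9. Hk2, a hexokinase induced by hypoxia, was lower without overlap, at 13.9, 10.2 and 4.52 RPKM in NF and 2.26, 3.97 and 4.42 RPKM in HF (-1.18 ± 0.39, p under 0.05), although its HF replicate 3 value (4.42 RPKM) was only just below NF replicate 3 (4.52 RPKM). Of 18 hypoxia and glycolysis genes 11 were lower. Hsp90aa1, a chaperone, was at 12.9, 16.2 and 11.9 RPKM in NF and 7.65, 6.60 and 9.36 RPKM in HF (-0.78 ± 0.27, p under 0.05), and 8 of 12 heat shock genes were lower (median -0.23). The heat shock median was -0.12 without HF replicate 2, -0.35 without HF replicate 3 and -0.08 without the replicates numbered 2.

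Muscle and fat-cell genes were lower in HF, with wide spread among NF mice. Of 15 smooth muscle genes 14 were lower (median -0.29), none had a p under 0.05, and NF replicate 1 held the highest value for 13. The median was -0.49 without NF replicate 2, and -0.20 without NF replicate 1. Myl9, a myosin light chain, was at 363, 305 and 336 RPKM in NF and 259, 265 and 252 RPKM in HF (-0.42 ± 0.26) and did not overlap. Myh11, the smooth muscle myosin, was at 32.4, 19.0 and 31.5 RPKM in NF and 17.4, 23.7 and 16.2 RPKM in HF. Of 10 adipocyte genes 8 were lower (median -0.42), NF replicate 3 was the highest for 7, and the median without it was -0.06. It was -0.70 without NF replicate 2 and -0.28 without HF replicate 3. Endothelial genes were higher in 10 of 13 cases (median 0.10), with Plvap, of vessel pores, at 16.2, 22.2 and 26.1 RPKM in NF and 28.5, 29.6 and 29.1 RPKM in HF (0.39 ± 0.18).

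The genes with the smallest p among those without overlap, predicted gene models and receptor segments apart, came from scattered functions. The smallest p of all genes was that of Mir6357, a microRNA gene whose annotated exon is 104 bases long. It was near or at 0 in all 3 NF mice and at 1.12, 1.15 and 1.82 RPKM in HF (1.21 ± 0.19, p under 0.05), so no ratio is given, and its 3 HF values do not correspond to whole reads. With the sugar drink it was at 0.688 RPKM in NF_Sugar replicate 3 and near or at 0 in the other libraries. Also on the higher side, Snhg7, a host gene of small nucleolar RNAs, was at 0.00437, 0 and 0.00706 RPKM in NF and 3.01, 0.998 and 0.712 RPKM in HF (1.24 ± 0.24, p under 0.05), so it was near or at 0 in all 3 NF mice and no ratio is given. It was also at 0.00378 RPKM or less in all 6 libraries of the sugar-drink groups. Zfp335, a zinc-finger regulator, was at 1.40, 1.27 and 2.12 RPKM in NF and 2.48, 2.87 and 3.34 RPKM in HF (0.56 ± 0.13, p under 0.05). Slc6a20b, of the family of proline carriers, was at 1.87, 1.39 and 3.00 RPKM in NF and 4.71, 4.78 and 3.32 RPKM in HF (0.76 ± 0.18, p under 0.05). Its paralog Slc6a20a was at 30.5, 23.7 and 43.7 RPKM in NF and 56.2, 50.1 and 39.3 RPKM in HF (0.53 ± 0.20, p under 0.05), and reads of the pair may be shared. On the lower side Prodh, which starts proline breakdown, was at 10.0, 9.41 and 14.3 RPKM in NF and 7.42, 8.37 and 8.53 RPKM in HF (-0.46 ± 0.13, p under 0.05). Spns3, Pomk, Osr2, Trim32, Scrn2, Tmem206, Hist1h1b and Susd2 were also higher without overlap, with differences from 0.41 for Scrn2 to 0.97 for Susd2 and p under 0.05 for all 8.

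The lower side was led by Isg20, an interferon-induced exonuclease, at 1.49, 1.54 and 2.12 RPKM in NF and 1.01, 0.970 and 1.14 RPKM in HF (-0.44 ± 0.09, p under 0.05), and by Nfkbia, described above. Hsd11b2, which inactivates corticosterone, was at 20.8, 16.1 and 20.2 RPKM in NF and 10.5, 13.0 and 14.4 RPKM in HF (-0.61 ± 0.16, p under 0.05). Fkbp5, a gene that corticosterone switches on, was at 31.8, 19.3 and 14.1 RPKM in NF and 8.24, 2.99 and 10.6 RPKM in HF (-1.58 ± 0.66, p under 0.05). Neither overlapped. Mboat1, a lysophospholipid acyltransferase, was at 4.08, 5.48 and 6.67 RPKM in NF and 2.12, 2.39 and 3.89 RPKM in HF (-0.81 ± 0.20, p under 0.05). Epop, Btg3, Fam162a, Gpcpd1, Cytl1, Xlr3a and Xlr3b were also lower without overlap (differences from -0.73 for Fam162a to -0.41 for Btg3), and Xlr3a and Xlr3b are near-identical copies on the X chromosome whose reads may be shared. Among the genes without overlap, predicted gene models and receptor segments apart, the highest difference after Snhg7 and Mir6357 was that of Enpp7, the brush-border sphingomyelinase. It was at 88.4, 128 and 118 RPKM in NF and 458, 136 and 199.97 RPKM in HF (1.01 ± 0.83), and it overlapped once scaled. Enpp7 was highest in HF replicate 1, as were Lct and Gata4. Agt, angiotensinogen, was at 9.50, 8.57 and 4.67 RPKM in NF and 18.7, 12.5 and 16.5 RPKM in HF (0.95 ± 0.31, p under 0.05). After Car1, whose HF values were near or at 0, and Saa1, the largest lower differences among the same genes were those of Fkbp5, Reg3g, Saa2 and Gml (-1.44 ± 0.53, p under 0.05).

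Of the genes that the study's text is about, the taste receptor subunit Tas1r3 was at 0.314, 0.279 and 0.470 RPKM in NF and 0.238, 0.381 and 0.254 RPKM in HF (-0.08 ± 0.10), and Tas1r1 and Tas1r2 were at 0.0549 RPKM or less in all 6 libraries. Pparg was lower without overlap, at 2.502, 2.22 and 2.20 RPKM in NF and 1.83, 1.43 and 1.88 RPKM in HF (-0.33 ± 0.12, p under 0.05). Lpin1, a phosphatidate phosphatase regulated by mTOR, was at 0.945, 0.974 and 1.05 RPKM in NF and 0.476, 0.675 and 0.742 RPKM in HF (-0.32 ± 0.09, p under 0.05), without overlap, and Mtor itself was at 1.92, 1.63 and 2.16 RPKM in NF and 1.97, 2.15 and 2.43 RPKM in HF (0.10 ± 0.09). Of the 21 genes of this list that were tested 11 were higher and 10 lower, with a median of 0.03. Several of them were named by the study from its own diet comparison, so the list is not independent evidence. The median changed sign without NF replicate 1, NF replicate 3 or HF replicate 3.

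The same diets with the sugar drink gave the fat comparison in 6 other mice, which share no library with HF and NF. There too 0 of 17662 genes (0%) passed the adjusted test, with 305 (1.73%) at an unadjusted p under 0.05, of which 183 (1.04%) were higher and 122 (0.691%) lower in HF_Sugar. By sign alone 8672 genes (49.1%) were higher and 8985 (50.9%) lower, and the groups did not overlap in 758 genes higher (4.29%) and 290 lower (1.64%), together 5.93%. The direction of the fat difference was the same with both drinks in 50.6% of all genes, and in 332 of the 665 genes (49.9%) with an unadjusted p under 0.05 with plain water. The interaction test, of whether the fat difference changed with the drink, called 0 genes, with 459 (2.6%) at an unadjusted p under 0.05.

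**Figure D5:**
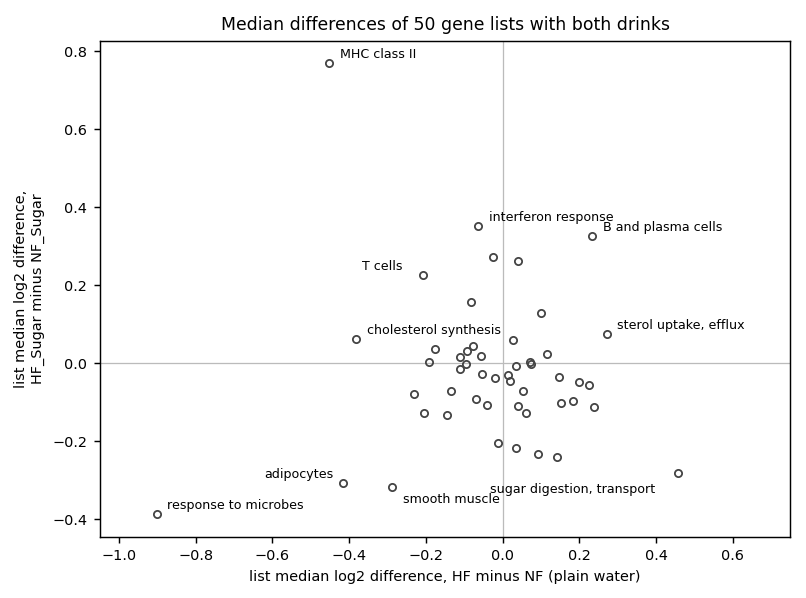
Each point is 1 of the 50 gene lists with at least 5 genes tested, placed by the median log2 difference between HF and NF (horizontal) and between HF_Sugar and NF_Sugar (vertical), with no library in common. The list on the response to microbes is low on both axes (-0.90 and -0.39), and the sugar list is above 0 with water (0.46) and below 0 with the sugar drink (-0.28).

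The lists divided, on scaled values, by whether the fat difference kept its direction. Genes of the response to microbes were lower in 15 of 17 cases with the sugar drink too (median -0.39). Reg3g had a difference of -1.03 ± 0.66 there. The mean log2 level of this list overlapped, at 4.65, 6.11 and 5.25 in NF_Sugar and 5.36, 4.47 and 4.79 in HF_Sugar. The mean levels of the other lists named in this paragraph also overlapped between NF_Sugar and HF_Sugar. Smooth muscle genes were lower in 15 of 15 (median -0.32), and B-cell and plasma-cell genes higher in 20 of 20 (median 0.33). Cholesterol synthesis genes did not keep theirs: 15 of 22 were higher with the sugar drink (median 0.06). The interaction p was under 0.05 for 5 of 22, against 2.6% of all genes. With plain water HF replicate 1 held the lowest value for 17 of the 22, so these 5 are not separate results. Hmgcs1 was at 31.2, 68.3 and 63.5 RPKM in NF_Sugar and 54.4, 70.8 and 59.0 RPKM in HF_Sugar, a difference of 0.20 (interaction p under 0.05). Sugar digestion and transport genes were lower in 15 of 15 cases (median -0.28). Slc2a5 was at 29.8, 23.0 and 20.01 RPKM in NF_Sugar and 22.7, 16.9 and 11.9 RPKM in HF_Sugar (interaction p under 0.05), and Fbp1 at 22.6, 20.2 and 26.2 RPKM and 15.8, 20.4 and 12.3 RPKM (interaction p under 0.05). MHC class II genes were higher in 10 of 10 cases (median 0.77) and interferon-response genes in 33 of 33 (median 0.35). Both were opposite in sign to their medians with plain water (-0.45 and -0.06). Those plain-water medians depended on NF replicate 2, and without it they were -0.05 and 0.12. No interaction passed the adjusted test, so a difference between drinks was not shown for any single gene, and none was tested for a list.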

How the data were processed

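The libraries started from total RNA of the ileum of single mice, with an RNA integrity number above 8 by the labels. By the study's methods, mRNA was taken from it and ribosomal RNA was removed before sequencing. The authors mapped the reads with STAR (Partek and mm10 in the submitters' processing notes). The deposited table gives RPKM for each gene in 12 libraries, made by the authors, and no counts. A low RPKM is a few reads over a gene length, so the size of those steps gave the depth of each library; 87.3% to 89.0% of low values came out whole within 0.03. Of 44231 names, 26 were bare numbers and were left out, and 40519 genes were matched by symbol to GENCODE M21 (GRCm38).

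Libraries were scaled by the trimmed mean of M values (30% of ratios and 5% of means trimmed). A limma model (version 3.58.1, R 4.3.3) with an intensity trend was fitted to log2(RPKM + 1) over all 4 groups, which left 8 residual degrees of freedom. Tested were the 17662 genes that reached 0.5 RPKM in 3 or more libraries, with Benjamini-Hochberg adjustment over all of them. Non-overlap was judged on unscaled RPKM. The design had planned count tests if counts were found, and these were not run. The fit was tested on simulated data with 200 changed genes, where it called 7 others. Samples of a group were separate mice by the study's methods. The p-values rest on the spread between mice within groups, pooled over the 4 groups of 3 mice.

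The comparison, the 54 gene lists and the rules were chosen with earlier results of these data known. Named were up to 12 genes each way by p and 6 by size among genes without overlap (predicted gene models and receptor segments passed over), up to 3 members of each list by p, and the genes of the study's text. Other members were named after their values were seen, and some genes of the lists are counted but not reported singly or plotted here. Alternatives were other scalings, filters and pseudocounts, HF and NF alone, a replicate block, limma-voom on recovered reads, a covariate for the library cluster, protein-coding genes alone, irregular values left out, and libraries left out. Promoters came from RefSeq (GRCm38.p6). Python 3.11.15 with numpy 2.4.6, pandas 2.3.3 and matplotlib 3.10.9 was used.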

Additional observations from a re-analysis of the deposited data

How the results depend on the processing

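The count of adjusted calls between HF and NF was 0 except without a filter on low values, where 4 genes passed of 44205 (1700011D18Rik, Gm12131, Gm12578 and Tcrg-V6), and without HF replicate 1, where Gm26778 passed (0 to 1 calls over single libraries left out). The count at an unadjusted p under 0.05 was 1819 without a filter, 251 at a mean RPKM of at least 5 (7098 genes tested), 350 without the replicates numbered 2 of HF and NF, an alternative chosen after seeing the data, and 425 to 975 over single libraries left out. Of 201 named genes tested, 73 had a p under 0.05 and all 73 kept their direction in 22 alternatives. Many were picked for a small p or no overlap in these same libraries. A kept direction was therefore close to given and is not independent support. The fat comparison with the sugar drink had 0 to 1 calls over single libraries left out, 1 with upper-quartile scaling and 2 among protein-coding genes alone. Its unadjusted count was 1150 without a filter, 54 at a mean RPKM of at least 5, 1050 without the libraries that stood apart, 512 with library cluster as covariate and 178 with limma-voom. The interaction had 0 to 1 calls over single libraries left out, and unadjusted counts of 1171 without a filter and 148 at a mean RPKM of at least 5. The cause of these shifts was not tested, apart from the number of genes tested.

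Deviations from the group means had correlations of 0.134, 0.555 and 0.0671 between same-numbered HF and NF libraries. Between libraries with different numbers they ran from -0.591 to 0.502. With 3 libraries per group such deviations are not independent, so they cannot show whether the replicate numbers paired the mice. With the replicate number as a block, 0 genes passed and 590 had an unadjusted p under 0.05, or 616 with HF and NF alone. The HF and NF libraries held 20.2 to 38.97 M reads, and the part of depth in the number of calls was not tested.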

Other observations

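Several lists were set by a single library. Nuclear genes of the respiratory chain were lower in HF in 21 of 28 cases (median -0.14), and HF replicate 2 was the lowest library for 26 of them. Without that library 6 of 28 were lower and the median was 0.09. Cell cycle and DNA replication genes were lower in 21 of 30 cases (median -0.06), with NF replicate 2 the highest for 21, and without NF replicate 2 the median was 0.06. The butyrophilin-like genes Btnl1, Btnl2, Btnl4 and Btnl6, which the gut epithelium uses to hold its gamma-delta T cells, were all higher in HF (median 0.28), with NF replicate 1 the lowest and HF replicate 2 the highest for all 4. The median was 0.08 without HF replicate 2 and 0.13 without NF replicate 1. Btnl1 was at 52.0, 54.8 and 87.5 RPKM in NF and 93.4, 101 and 72.6 RPKM in HF (0.42 ± 0.23).

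Unfolded protein response genes were lower in 14 of 19 cases (median -0.20) but not without the replicates numbered 2 (median 0.04). Creld2, a chaperone partner of that response, was lower without overlap, at 28.6, 36.9 and 29.7 RPKM in NF and 19.9, 11.8 and 25.9 RPKM in HF (-0.81 ± 0.35, p under 0.05). Trib3, a stress-induced pseudokinase, was higher without overlap, at 3.84, 5.23 and 3.64 RPKM in NF and 7.84, 9.42 and 5.98 RPKM in HF (0.68 ± 0.33). Retinoid metabolism genes were higher in 8 of 11 cases (median 0.24), but the median was 0.12 without HF replicate 1, where 4 of 11 were lower, and 0.16 without NF replicate 2. Lrat, which esterifies retinol for transport, was at 1.45, 1.34 and 1.97 RPKM in NF and 2.13, 2.63 and 2.07 RPKM in HF (0.31 ± 0.14), without overlap. Of 16 clock genes 4 did not overlap in unscaled RPKM, 25% of the list against 8.35% of all genes, but 0 had a p under 0.05. Nr1d1, 1 of the 4, overlapped once scaled. The list median was 0.07, and -0.025 without the replicates numbered 2. Nr1d1, Per3 and Tef were higher and Cry1 was lower (0.30 ± 0.20, 0.30 ± 0.24, 0.40 ± 0.36 and -0.37 ± 0.21), and the time of sampling was not tested.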
